A study of Mus musculus with 8 samples.

Results

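Type I interferon stimulated genes are the genes that cells switch on when interferon alpha or beta binds its receptor, and 33 of them were followed here in mouse CD8 T cells with an edited Carm1 gene. They were chosen as a list of gene symbols, and all 33 were found among the 49315 genes counted and were abundant enough to be tested. The cells were OT-I CD8 T cells, killer T cells whose antigen receptor, introduced as a transgene, recognises a peptide of ovalbumin. The labels' Control KO cells were edited by CRISPR-Cas9 with a guide RNA against the bacterial gene LacZ, and the Carm1 KO cells with a guide against Carm1, the gene of an enzyme that methylates arginines on histones and other proteins and helps activate transcription. They are called control and Carm1-edited below.

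Cells of both groups were naive CD8 T cells, purified from spleens and inguinal lymph nodes with a negative selection kit, and kept in interleukin-7 at 2.5 ng/ml with interleukin-15 at 50 ng/ml. The editing reagents were delivered by nucleofection, and RNA was taken 7 days later. The age of the mice is not given in the sources used here. According to the series text both groups were cultured with ovalbumin-expressing B16F10 melanoma cells, which the sample protocols do not mention. Each group had 4 libraries, called technical replicates in the labels. The p-values then reflect only how far these libraries differ, and an effect of the edit cannot be told apart from other differences between the 2 preparations of cells. In bulk RNA, fewer cells of a type and less RNA per cell cannot be told apart.

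The control libraries held 38768760 to 41439998 counts each and the Carm1-edited libraries 37556330 to 39988442. At this depth 3 counts in a library were worth 0.0718 to 0.0819 CPM (a count scaled to a common total, on library sizes scaled by trimmed mean of M-values factors). Carm1 itself (ENSMUSG00000032185, mm10 chr9:21546894-21592623, plus strand) was at 95.9 ± 1.04 CPM (SD, n = 4) in control and 32.8 ± 0.493 CPM in Carm1-edited libraries, a log2 fold change of -1.55 ± 0.027 (SE; edgeR quasi-likelihood test, adjusted p = 1.6e-37). Changes are given as Carm1-edited minus control throughout. The 9 markers of CD8 T cells summed to 4975 to 5088 CPM in control and 6837 to 7052 CPM in Carm1-edited libraries, so the labelled cell type was present in both groups.

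Interferon alpha and beta bind a receptor made of IFNAR1 and IFNAR2, which activates the kinases JAK1 and TYK2. These phosphorylate STAT proteins, among them STAT2, which join IRF9 and bind the interferon stimulated response element (ISRE) in the promoters of target genes. Interferon gamma uses another receptor, and its STAT pairs bind the gamma activated sequence (GAS). In T cells type I interferon is known to shape expansion and survival after antigen, and its targets include RNA sensors, antiviral enzymes and inhibitors of the pathway itself.

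The ISRE is the sequence these genes are expected to share, so it was searched for in their promoters. RefSeq promoter sequences (GRCm38.p6, the assembly of mm10, 250 bases before to 50 bases after the annotated start) matched 24 of the 33 genes, with 28 promoters. For 19 of these 28, the first 30 transcribed bases occur in a GENCODE transcript of the gene, and for the others they do not. The ISRE core, searched as GAAANNGAA on both strands, was in 15 of these 28 promoters (53.6%) and in 8.56% of all 32851 promoters of the same length. It was present in 14 genes, and the copy nearest the start of each is printed below with up to 10 bases on either side, 5′ to 3′ on the strand of the gene, with the core in capitals. A core on the opposite strand appears as its reverse complement.
Isg15, chr4:156200866-156200894, minus strand: aaaggaaaccGAAACAGAAaatagctctg
Ifit3, chr19:34583417-34583445, plus strand: tactttcctcTTCCCTTTCacaaacactg
Ifit3b, chr19:34607813-34607841, plus strand: tactttcctcTTCCCTTTCacaaacactg
Ifit1, chr19:34640795-34640823, plus strand: cagtctcagtTTCAGTTTCtcactgctga
Oas1a, chr5:120907521-120907549, minus strand: tcgggaaatgGAAACTGAAaatctacttc
Oas3, chr5:120777710-120777738, minus strand: aggagaaaacGAAAGTGAAgggaggtgac
Bst2, chr8:71537578-71537606, minus strand: ccaggaaaatGAAACTGAAaggctgcagt
Rsad2, chr12:26456553-26456581, minus strand: tggtccaactTTCATTTTCagaaaacaga
Stat2, chr10:128270267-128270295, plus strand: gcaccctggtTTCAGTTTCctttccctag
Trim30a, chr7:104446104-104446132, minus strand: tgtttttagtTTCTTTTTCtcagttcctg
Ddx58, chr4:40239804-40239832, minus strand: ctgaggcagtTTCGATTTCctatggccag
Ifih1, chr2:62646206-62646233, minus strand: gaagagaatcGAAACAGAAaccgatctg
Samd9l, chr6:3399522-3399543, minus strand: atcgaaactgGAAACTGAAgca
Ifi44, chr3:151749895-151749923, minus strand: aaagtttctcTTCATTTTCtacaggcttg

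Isg15, Ifit1, Ifit3 and Ifit3b each held 3 copies of the core. The copies formed an overlapping run in Isg15, and copies also overlapped in Ifit1, Bst2, Oas1a and Oas3. All 3 stretches around the copies of Ifit3 were found letter for letter at Ifit3b. The whole promoter of Isg15, with its run of overlapping cores in capitals, is shown here with that of Oasl2, the gene with the largest fall, in which these letters were not found, and that of Rsad2, which holds a core and whose level did not pass the test.
Isg15, chr4:156200769-156201068, minus strand: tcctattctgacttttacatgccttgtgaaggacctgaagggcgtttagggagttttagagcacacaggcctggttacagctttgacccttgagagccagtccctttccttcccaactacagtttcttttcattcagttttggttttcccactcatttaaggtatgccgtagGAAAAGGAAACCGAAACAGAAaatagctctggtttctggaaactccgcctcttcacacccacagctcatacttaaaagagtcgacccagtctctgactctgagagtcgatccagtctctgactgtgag
Oasl2, chr5:114896684-114896983, plus strand: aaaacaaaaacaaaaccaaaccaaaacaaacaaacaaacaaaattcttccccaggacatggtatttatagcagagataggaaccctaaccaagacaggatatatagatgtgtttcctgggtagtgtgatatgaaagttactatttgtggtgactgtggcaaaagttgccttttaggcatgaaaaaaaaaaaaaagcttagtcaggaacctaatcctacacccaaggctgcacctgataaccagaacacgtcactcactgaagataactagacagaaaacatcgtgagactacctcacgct
Rsad2, chr12:26456403-26456702, minus strand: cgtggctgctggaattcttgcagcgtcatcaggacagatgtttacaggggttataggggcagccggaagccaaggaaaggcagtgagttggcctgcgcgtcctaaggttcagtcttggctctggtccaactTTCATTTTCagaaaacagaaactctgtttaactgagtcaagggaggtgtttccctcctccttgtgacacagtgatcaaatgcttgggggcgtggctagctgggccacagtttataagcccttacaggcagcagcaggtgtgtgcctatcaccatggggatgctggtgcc

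As a group these genes were lower in Carm1-edited libraries. Their summed level was 4686 to 4738 CPM in the control libraries and 2029 to 2074 CPM in the Carm1-edited libraries, or 0.443% to 0.449% and 0.212% to 0.221% of all counts. Of the 33 genes 30 fell (90.9%), 1 rose and 2 did not pass the test. This stands beside a background in which 43.2% of the 14970 genes tested fell and 44.5% rose, so a change in itself was common in this comparison. Genes that rose made up 50.8% of all calls, and 61.0% with upper-quartile factors in place of the scaling used.

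Larger falls were counted in the same way. In 22 of the 33 genes (66.7%) the fall was at least 2-fold, against 15.2% of all genes tested. In 9 genes (27.3%) it was at least 8-fold, against 2.49% of all genes tested. The median log2 fold change was -1.37 for the list and 0.02 for all genes tested. All 4 Carm1-edited libraries lay below all 4 control libraries for 30 of the 33 genes, which was so for 41.2% of all genes tested. The 9 genes with the largest falls, Oasl2, Oas2, Ifit3b, Ifit3, Oasl1, Isg15, Usp18, Ifit1 and Oas1a, together went from 601 CPM to 32.7 CPM.

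**Figure D1:**
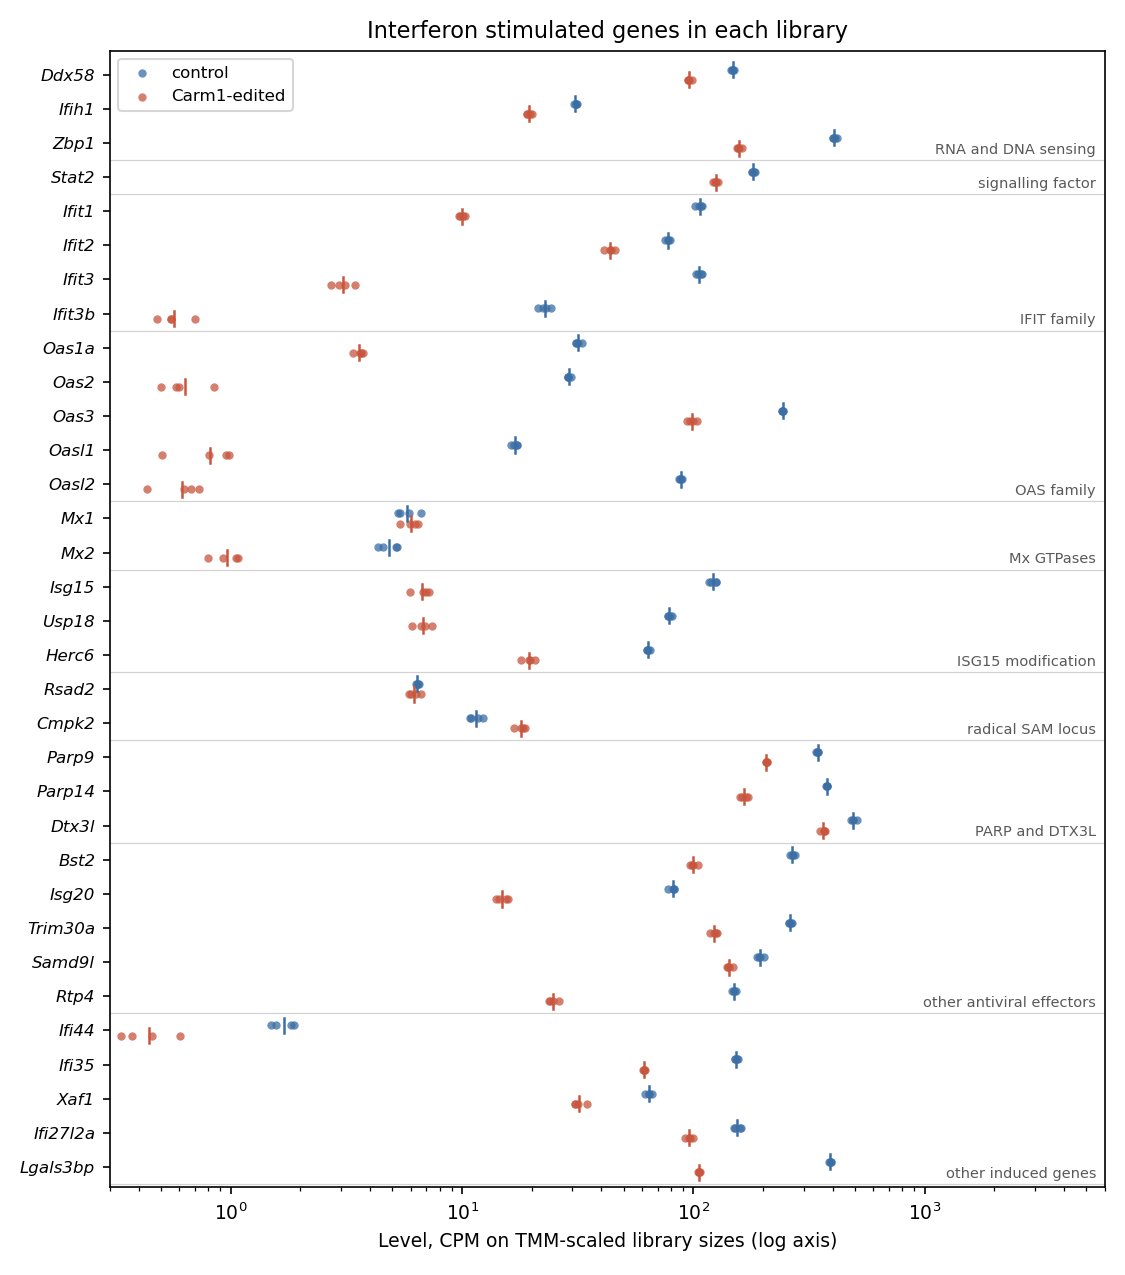
Levels of the 33 interferon stimulated genes in CPM (log axis), grouped by role. Points are the 4 control (blue) and 4 Carm1-edited (red) libraries and short vertical lines are group means. The groups are apart for 31 genes and overlap for Mx1 and Rsad2. Of all genes tested, 41.2% had all 4 Carm1-edited libraries below all 4 control libraries.

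**Figure D2:**
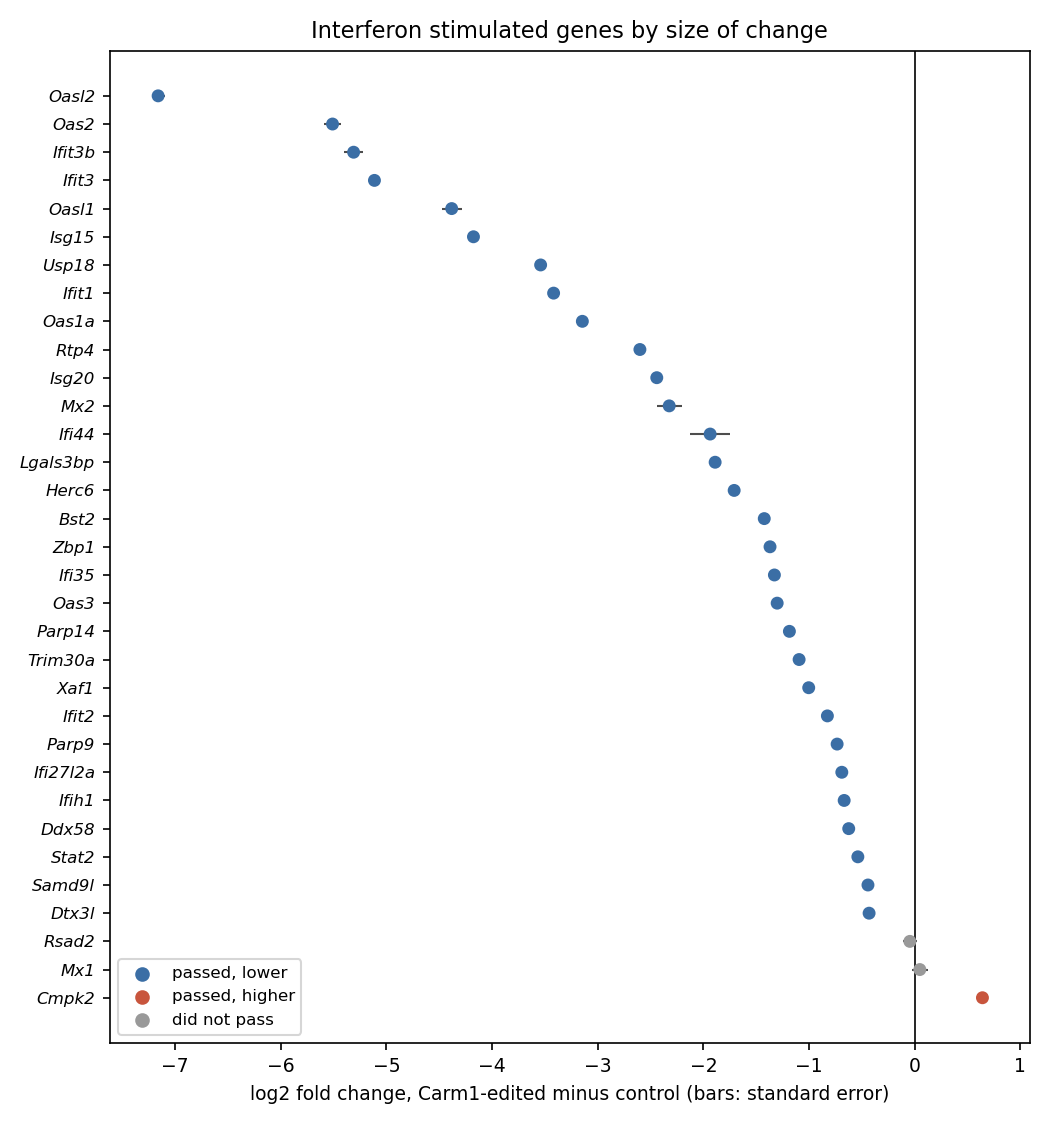
Log2 fold change of the 33 genes, ordered by size, with standard errors as bars. Values run from -7.16 for Oasl2 to 0.64 for Cmpk2, and 30 genes passed the test as lower.

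The pathway begins with the interferons and their receptor. The genes for the interferons themselves, Ifnb1, the Ifna genes, Ifnab, Ifne and Ifnk, 17 in all, were nearly silent. None had more than 4 counts in a control library or 2 in a Carm1-edited library, and none was tested. Summed over the 17 genes the level was 0.109 to 0.152 CPM in control and 0 to 0.0752 CPM in Carm1-edited libraries.

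The 5 genes followed for the receptor, its kinases and Irf9 all rose, against 44.5% of all genes tested. Ifnar1, which encodes a receptor chain, was at 170, 166, 164 and 163 CPM in the control libraries and at 276, 285, 293 and 283 CPM in the Carm1-edited libraries. Its log2 fold change was 0.78 ± 0.023 (SE; adjusted p = 1.5e-29). Ifnar2, for the other chain, was at 92.1 to 95.3 CPM in control and 175 to 176 CPM in Carm1-edited libraries (log2 fold change 0.90 ± 0.023, adjusted p = 1.6e-31). Every Carm1-edited library thus held more RNA for both receptor chains than any control library. The share of all genes separated upwards in this way was not counted. Jak1, a receptor kinase, rose from 616 to 900 CPM (log2 fold change 0.55), and Tyk2, the other kinase, rose from 69.0 to 95.3 CPM (0.47). Irf9, the DNA-binding partner of the STAT pair, rose from 124 to 139 CPM (0.16). Ifnar1 and Ifnar2 passed a test against a 1.5-fold change, and Jak1, Tyk2 and Irf9 did not.

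Stat2, a signalling factor and a member of the stimulated list, was at 183, 178, 178 and 184 CPM in control and at 122, 127, 126 and 124 CPM in Carm1-edited libraries. It fell by 0.54 ± 0.023 on the log2 scale (adjusted p = 1.6e-23), among the smaller falls of the list, and it did not pass a test against a 1.5-fold change.

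**Figure D3:**
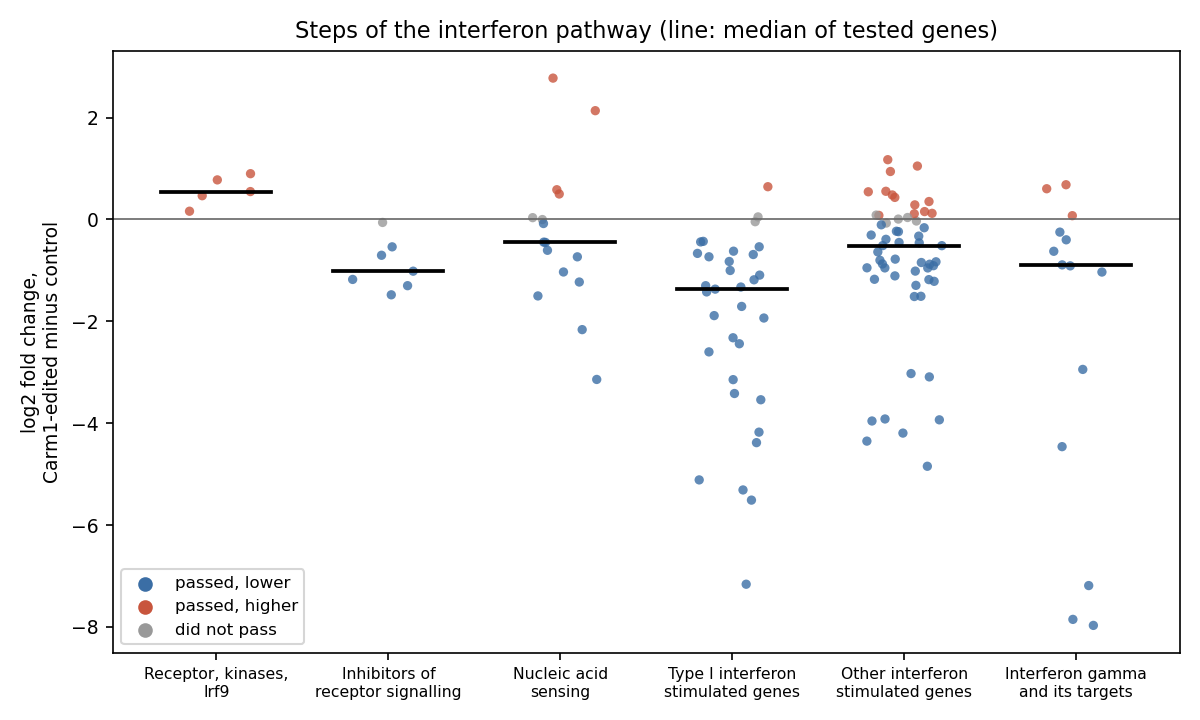
Log2 fold changes of the tested genes at each step of the pathway, as points coloured by the test, with the median of each list as a line. Medians are 0.55 for the receptor, kinases and Irf9, -1.02 for inhibitors, -0.45 for sensing, -1.37 for the 33 stimulated genes, -0.51 for other stimulated genes and -0.90 for interferon gamma and its targets, and Cxcl9, with 0 counts in Carm1-edited libraries, is drawn at its bound of -7.85.

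Among the sensors of foreign nucleic acid on the list, all 3 fell. Ddx58 encodes RIG-I, a cytoplasmic sensor of viral RNA ends. It was at 145, 149, 149 and 147 CPM in control and at 94.4, 95.7, 94.6 and 98.2 CPM in Carm1-edited libraries, a log2 fold change of -0.62 ± 0.024 (adjusted p = 1.7e-25). Ifih1, which encodes MDA5, a sensor of long double-stranded RNA, fell from 30.9 to 19.5 CPM (-0.67). For both RNA sensors all Carm1-edited libraries lay below all control libraries, as for 41.2% of all genes tested. Zbp1, a sensor of Z-form nucleic acid that can start cell death, was at 402, 409, 416 and 401 CPM in control and 154, 158, 156 and 162 CPM in Carm1-edited libraries (-1.37 ± 0.023, adjusted p = 1.9e-38).

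The IFIT genes encode proteins that bind viral RNA and block its translation, and they lie side by side on chromosome 19 in the order Ifit2, Ifit3, Ifit3b, Ifit1. All 4 fell, but by very different amounts. Ifit3 (chr19:34583531-34588731) was at 102, 108, 108 and 105 CPM in control and at 3.11, 3.44, 2.72 and 2.93 CPM in Carm1-edited libraries. Its fall was 34.6-fold (log2 fold change -5.11 ± 0.045, adjusted p = 1.1e-47). Ifit3b (chr19:34607970-34613401) was at 21.4, 24.2, 23.1 and 22.3 CPM in control and 0.478, 0.553, 0.550 and 0.702 CPM in Carm1-edited libraries, a fall of 39.7-fold (-5.31 ± 0.090, adjusted p = 4.0e-38). These neighbours are near copies, and 51.2% of the 50-base stretches of Ifit3 transcripts also occur in Ifit3b, so their counts could be divided between them in counting. For a stretch of 150 bases, the read length, the share was 18.5%.

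Ifit1 (chr19:34640871-34650009) was at 108, 109, 106 and 102 CPM in control and at 9.78, 9.71, 10.1 and 10.3 CPM in Carm1-edited libraries, a fall of 10.7-fold (-3.42 ± 0.035, adjusted p = 1.7e-45). Ifit2 (chr19:34550694-34576419), the first gene of the row, was at 75.7 to 79.2 CPM in control and 41.3 to 45.8 CPM in Carm1-edited libraries. Its fall was 1.77-fold (-0.83 ± 0.029, adjusted p = 1.3e-26). The fitted falls along this row thus ran from 1.77-fold to 39.7-fold. No ISRE core was found in the Ifit2 promoter windows, and a GAS was. Ifit1bl1, a related gene between Ifit3 and Ifit3b that is not on the list of 33 and was picked after its values were seen, fell from 113 to 63.5 CPM (-0.83). Ifit1bl2, a relative between Ifit3b and Ifit1 picked in the same way, rose from 1.327 to 1.695 CPM (0.35, adjusted p = 0.026). Its libraries overlapped.

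The OAS genes encode enzymes that make short adenylate chains when they meet double-stranded RNA, which activate RNA decay, and relatives that resemble them. All 5 on the list fell, and they included the largest fall. Oasl2 (chr5:114896936-114912234) was at 87.0, 88.5, 87.8 and 89.3 CPM in control and at 0.670, 0.433, 0.625 and 0.727 CPM in Carm1-edited libraries. Its level fell 143-fold (log2 fold change -7.16 ± 0.061, adjusted p = 3.3e-48), and every Carm1-edited library stood under 1 CPM. Oasl1, its neighbour on chromosome 5, which in mice restrains production of interferon, was at 16.3 to 17.3 CPM in control and 0.505 to 0.981 CPM in Carm1-edited libraries (-4.38 ± 0.093, adjusted p = 1.3e-34).

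In the OAS row of chromosome 5, Oas2 (chr5:120730333-120749853) was at 28.6, 29.6, 28.7 and 28.7 CPM in control and at 0.598, 0.577, 0.850 and 0.501 CPM in Carm1-edited libraries. It fell 45.6-fold (-5.51 ± 0.082, adjusted p = 4.4e-40). Oas3 (chr5:120753098-120777661), which is read from the same minus strand and ends 3244 bases before the start of Oas2, was at 241, 242, 244 and 244 CPM in control and 94.2, 99.6, 104 and 96.8 CPM in Carm1-edited libraries. Its fall was 2.46-fold (-1.30 ± 0.025, adjusted p = 3.6e-36), so these neighbours differed widely in the size of their fall. Oas1a (chr5:120896256-120907521) fell 8.85-fold, from 31.8 to 3.59 CPM (-3.15 ± 0.055, adjusted p = 1.2e-37). Of its 50-base stretches 57.6% occur in other genes, Oas1g and Oas1b, and of those of 150 bases 32.4% occur in Oas1g, which leaves its count uncertain.

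The Mx genes encode GTPases that trap viral nucleoproteins. Mx2 was at 4.54, 5.25, 4.34 and 5.19 CPM in control and at 1.08, 0.793, 0.925 and 1.05 CPM in Carm1-edited libraries, a fall of 5.004-fold (-2.32 ± 0.120, adjusted p = 5.6e-21). Mx1, whose protein is not functional in most inbred laboratory strains, was at 5.88, 5.30, 6.62 and 5.41 CPM in control and 5.93, 6.44, 5.37 and 6.27 CPM in Carm1-edited libraries. These values overlap, and the log2 fold change was 0.05 ± 0.077 (adjusted p = 0.55). It passed as higher under upper-quartile scaling (0.26, adjusted p = 0.0020) and under scaling by totals (0.21, adjusted p = 0.013).

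Isg15 encodes a ubiquitin-like protein that is attached to other proteins during an interferon response and is also released from cells. It lies on chromosome 4 (chr4:156199424-156200818, minus strand), and its counts came to 117, 125, 125 and 119 CPM in control and 7.20, 6.97, 5.92 and 6.74 CPM in Carm1-edited libraries. That is a fall of 18.1-fold (-4.18 ± 0.040, adjusted p = 8.0e-45). Usp18 (chr6:121245906-121270917), the protease that removes ISG15 and also binds IFNAR2 to damp signalling, was at 77.7, 79.1, 77.3 and 81.0 CPM in control and 6.62, 7.40, 6.10 and 6.92 CPM in Carm1-edited libraries (-3.54 ± 0.042, adjusted p = 1.2e-43). Herc6, which in mice encodes the ligase that attaches ISG15, fell from 63.6 ± 0.919 to 19.5 ± 1.09 CPM (-1.71).

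The rest of the ISG15 machinery was taken from outside the list, after its values were seen. Uba7, the activating enzyme, fell from 200 to 146 CPM (-0.46). Ube2l6, the conjugating enzyme, was at 14.3 CPM in control and 15.2 CPM in Carm1-edited libraries (0.08, adjusted p = 0.11), with overlapping libraries. It passed as higher under upper-quartile scaling (0.30, adjusted p = 1.1e-06), under scaling by totals (0.24, adjusted p = 3.4e-05) and after a filter of 5 CPM (0.18, adjusted p = 0.0018). The fitted falls were thus larger for the modifier and its protease than for the activating enzyme, and that difference was not tested.

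With Mx1, Rsad2 and Cmpk2 were the genes of the list that did not fall. Rsad2 and Cmpk2 face away from each other on chromosome 12, with 12751 bases between them. Rsad2 encodes viperin, an enzyme that makes a chain-terminating nucleotide, and was at 6.31, 6.39, 6.49 and 6.47 CPM in control and 6.00, 6.35, 6.62 and 5.89 CPM in Carm1-edited libraries. The groups overlapped and the log2 fold change was -0.04 ± 0.068 (adjusted p = 0.53). With upper-quartile factors it passed as higher (0.17, adjusted p = 0.019).

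Cmpk2, which encodes a mitochondrial nucleotide kinase, was the only gene of the list to rise. It was at 12.4, 11.7, 10.9 and 10.8 CPM in control and at 18.0, 18.3, 16.7 and 18.6 CPM in Carm1-edited libraries, without overlap. A rise was called for 44.5% of all genes tested. It rose 1.56-fold (log2 fold change 0.64 ± 0.052, adjusted p = 1.2e-14) and did not pass a test against a 1.5-fold change (adjusted p = 0.092).

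Parp9 and Dtx3l encode partners in a complex that marks proteins with ADP-ribose and ubiquitin, and Parp14 encodes a further ADP-ribosyltransferase. All 3 lie together on chromosome 16. Parp14 was at 380, 377, 378 and 374 CPM in control and 159, 163, 172 and 170 CPM in Carm1-edited libraries (-1.19 ± 0.024, adjusted p = 9.6e-36). Parp9 fell from 344 ± 3.65 to 207 ± 1.09 CPM (-0.73), and Dtx3l from 492 ± 11.0 to 365 ± 8.41 CPM (-0.43), the smallest fall to pass the test. The last 2 genes are read from opposite strands and share 458 bases of exon, which is 9.40% of the length of Parp9, and the library kit does not mark strand, so reads from that stretch cannot be told apart.

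All 5 genes grouped as other antiviral effectors fell. Rtp4, an interferon-induced inhibitor of flavivirus replication, was at 152, 150, 150 and 147 CPM in control and at 26.3, 24.7, 24.1 and 23.7 CPM in Carm1-edited libraries (-2.60 ± 0.029, adjusted p = 2.1e-44). Isg20, an RNA-degrading exonuclease, was at 77.9 to 82.8 CPM in control and 14.0 to 15.8 CPM in Carm1-edited libraries (-2.44 ± 0.036). Bst2, which encodes tetherin, a membrane protein that holds budding virus at the cell surface, was at 262, 274, 269 and 267 CPM in control and 105, 98.8, 96.5 and 99.2 CPM in Carm1-edited libraries (-1.42 ± 0.025). These 3 effectors thus fell between 2.68-fold and 6.07-fold. Trim30a, known in mice to restrain Toll-like receptor signalling, fell from 263 to 123 CPM (-1.09), and Samd9l, a host restriction factor for poxviruses, fell from 194 to 143 CPM (-0.44).

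The last 5 genes also fell. Lgals3bp, which encodes a secreted glycoprotein that binds galectin 3, was at 389, 395, 386 and 395 CPM in control and at 106, 104, 106 and 107 CPM in Carm1-edited libraries (-1.89 ± 0.022, adjusted p = 1.0e-43). Ifi35, whose protein binds NMI, fell from 153 to 61.1 CPM (-1.33), and Xaf1, whose protein opposes the apoptosis inhibitor XIAP, from 64.2 to 32.1 CPM (2.003-fold). Ifi27l2a fell from 155 to 96.1 CPM (-0.69). Ifi44 was at 1.69 ± 0.189 CPM in control and 0.442 ± 0.117 CPM in Carm1-edited libraries (-1.94 ± 0.186, adjusted p = 1.7e-12), and the widest standard error.

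Levels were compared between genes only per length, as TPM computed from the counts and the deposited gene lengths. Ifi27l2a led in both groups, at 832 ± 14.5 in control and 534 ± 24.9 in Carm1-edited libraries, followed by Bst2 at 737 ± 5.82 and 285 ± 7.13. Isg15 ranked 3 of the 33 in control at 399 ± 6.93 and ranked 16 in Carm1-edited libraries at 22.8 ± 1.61. Oasl2 moved from rank 22 to rank 32, from 34.4 ± 0.629 to 0.247 ± 0.046. Ifi44 was last in both groups, at 0.688 and 0.185. In Carm1-edited libraries Dtx3l came next after Bst2, at 164 ± 8.83. In control, Oas2 and Oasl1, both at 16.1, do not differ beyond their spread, nor do Stat2 at 102 and Parp14 at 101.

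**Figure D4:**
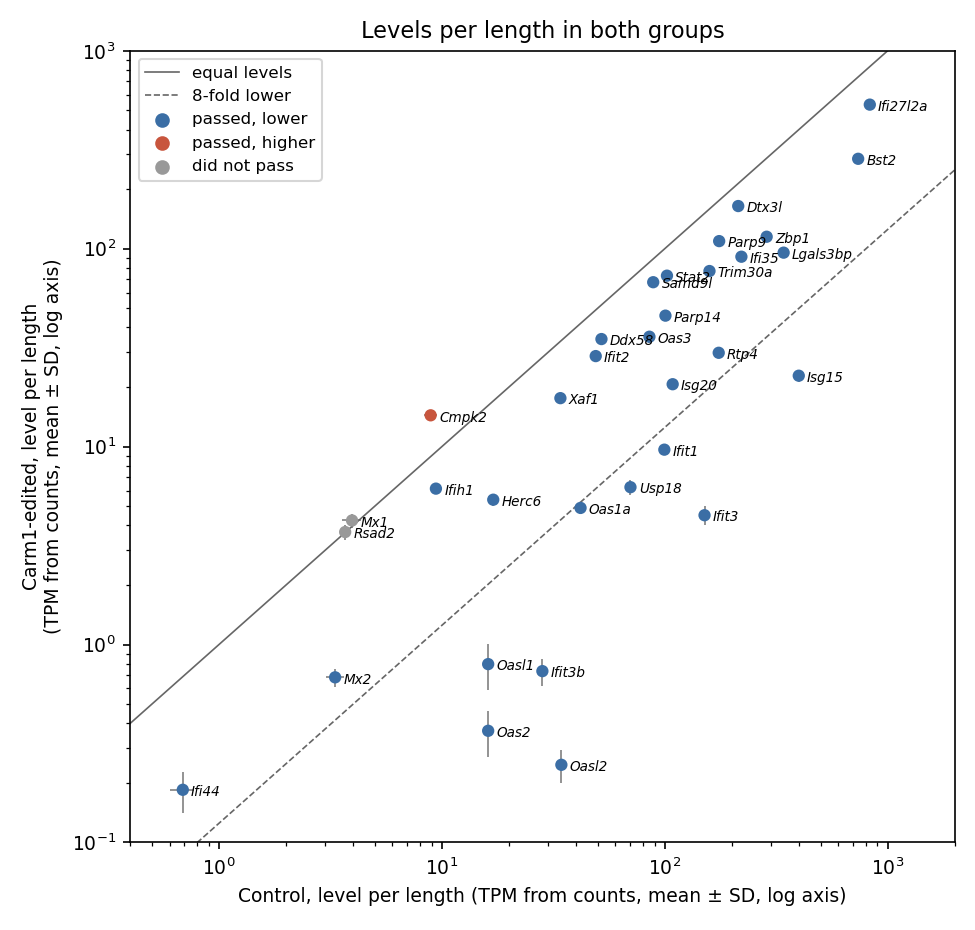
Mean level per length (TPM from counts, log axes) of the 33 genes in control against Carm1-edited libraries, with SD bars over 4 libraries. Genes under the dashed line were more than 8-fold lower on this scale, among them Oasl2, Ifit3 and Isg15, and Cmpk2 lies above the line of equal levels.

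Genes with and without the ISRE core overlapped in the size of their change. The 14 genes with the core had log2 fold changes from -5.31 to -0.04 with a median of -1.36, and the 10 genes with a promoter sequence but no core had values from -7.16 to 0.64 with a median of -1.52. Among the latter, Ifi35, Isg20, Lgals3bp, Oasl1 and Xaf1 hold the looser AAANNGAA, so the split holds for the strict letters only. The GAS, searched as TTCNNNGAA on both strands, was in 5 of the 28 promoters (17.9%) and in 8.30% of all promoters, in Bst2, Ifi35, Ifit2, Isg20 and Oas1a. In Bst2 it overlapped a copy of the ISRE core. These are matches of letters in a window of 300 bases, with no test and no measure of binding.

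**Figure D5:**
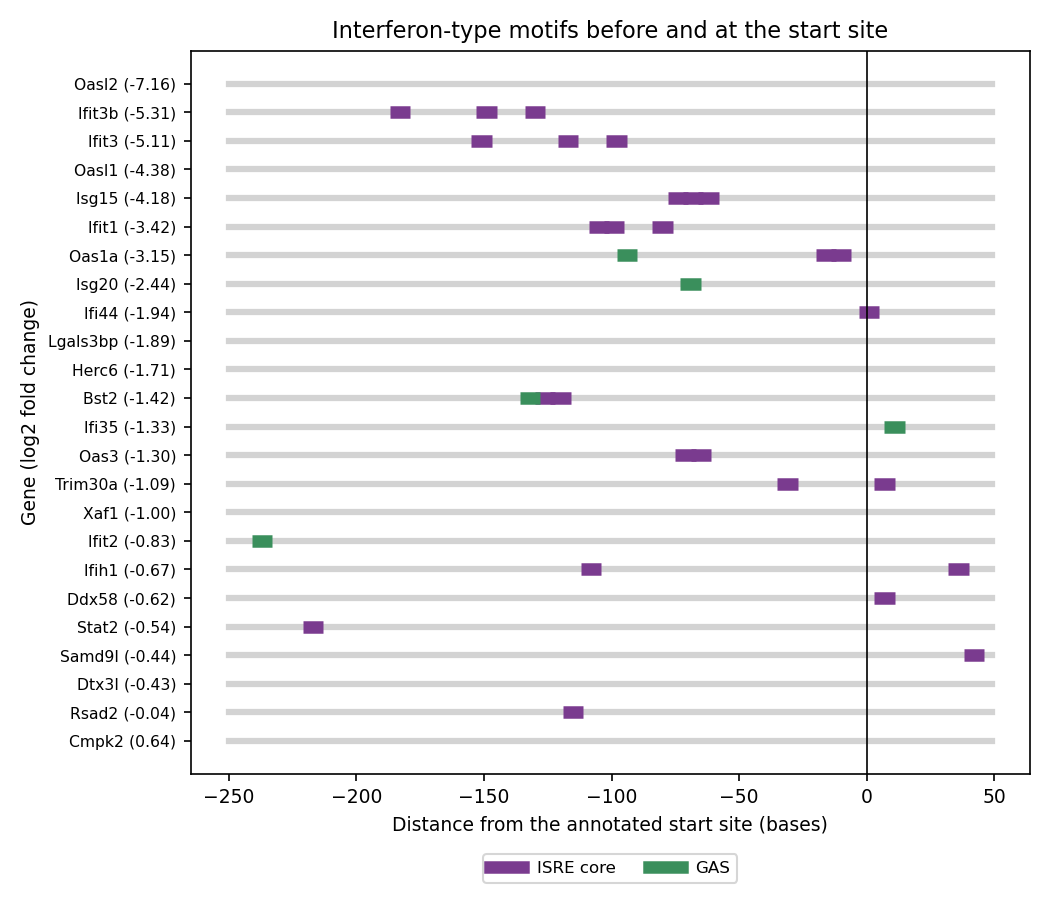
Positions of the ISRE core (purple) and GAS (green) relative to the annotated start site, in bases, for the 24 genes with a promoter sequence, ordered by log2 fold change, which stands beside each name. Copies lie close together in Isg15, Ifit1, Ifit3 and Ifit3b, and none was found for Oasl2 or Oasl1. Genes with several promoters have them drawn on the same line, and the 2 copies shown for Trim30a come from 2 different promoters.

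Inhibitors of receptor signalling fell together with the stimulated genes. Of 7 such genes 6 fell, against 43.2% of all genes tested, and their median change on the log2 scale was -1.02. Socs3, which blocks JAK activity, fell from 276 ± 5.10 to 99.0 ± 2.87 CPM (-1.48), and Socs1, a stronger inhibitor of the interferon receptors, was at 458, 477, 462 and 481 CPM in control and 204, 189, 194 and 176 CPM in Carm1-edited libraries (-1.30 ± 0.035, adjusted p = 1.6e-15). The phosphatase genes Ptpn6 (-1.18), Ptpn1 (-1.02) and Ptpn11 (-0.70) fell as well. Pias1, an inhibitor of STAT signalling, did not pass (58.3 and 56.0 CPM, log2 fold change -0.06, adjusted p = 0.072). Its call turned both ways with the processing. It passed as higher with upper-quartile factors (0.16, adjusted p = 2.3e-05) and library totals alone (0.10, adjusted p = 0.0046), and as lower with RLE factors (adjusted p = 0.025), with no filter (adjusted p = 0.0077), and without control replicate 2, 3 or 4 or Carm1-edited replicate 4 (adjusted p from 0.013 to 0.045).

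Genes that sense nucleic acid and lead to interferon production were mixed. Of 16 tested, 10 fell and 4 rose, with a median of -0.45, where 43.2% of all genes tested fell and 44.5% rose. Tlr7, an endosomal RNA receptor, fell from 7.21 ± 0.424 to 0.816 ± 0.097 CPM (-3.14), Cgas, the cytosolic DNA sensor, from 26.0 to 5.80 CPM (-2.16), and Irf7, the factor that amplifies interferon gene transcription, from 170 to 60.2 CPM (-1.50). Dhx58, a relative of RIG-I named here after its values were seen, fell from 57.0 to 41.7 CPM (-0.45). The genes that rose were Irf5 (2.77), Tlr9 (2.14), Ikbke (0.58) and Ticam1 (0.50), of which the last 2 were named after their values were seen. Tlr9 was low in every library, at 0.136 to 0.355 CPM in control and 0.861 to 1.06 CPM in Carm1-edited libraries.

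A wider list held 58 other interferon stimulated genes. Of 56 tested, 38 fell and 13 rose, with a median of -0.51, where 43.2% of all genes tested fell and 44.5% rose. Parp12, an antiviral ADP-ribosyltransferase, fell furthest among the abundant ones, from 84.1 ± 1.91 to 4.12 ± 0.232 CPM (-4.35). Ifi204, Ifi207 and Ifi205, of a family that binds DNA, fell from 2.73, 0.729 and 0.793 CPM to 0.0910, 0.0365 and 0.0482 CPM. Trim30c, a relative of Trim30a, fell from 12.7 to 0.812 CPM (-3.96). Among the 13 that rose, named after their values were seen, were Ifi27, Oas1c (0.94), Ifi213 (0.54) and Ifi203 (0.29). Ifi27 went from 99.9 to 206 CPM (1.05), and Ifi203 from 217 to 264 CPM. Oas1g, which shares sequence with Oas1a, was too low to be tested, with 47 counts summed over the control libraries and 0 over the Carm1-edited libraries. That is at least 15.3-fold lower when set against a floor of 3 counts over the group.

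The interferon gamma side fell as well. Of 14 genes 11 fell and 3 rose, with a median of -0.90, where 43.2% of all genes tested fell and 44.5% rose. Ifng, the cytokine gene, was at 137, 133, 133 and 129 CPM in control and at 0.311, 0.697, 0.450 and 0.652 CPM in Carm1-edited libraries. Cxcl9, an interferon gamma-induced chemokine, had 710 counts summed over the control libraries and 0 over the Carm1-edited libraries, at least 231-fold lower against 3 counts over the group. Cxcl10, a chemokine of both interferon types, fell from 30.8 to 0.207 CPM (-7.19), Nos2, the inducible nitric oxide synthase gene, from 8.43 to 0.381 CPM (-4.46), and Gbp2, a guanylate-binding protein gene, from 2627 to 341 CPM (-2.94). Many of the 33 genes are known to respond to interferon gamma too, and the part of the fall in Ifng in their fall was not tested. The genes that rose, named after their values were seen, were Ifngr1 (0.68), Iigp1 (0.60) and Ifngr2 (0.07), and the last of these lost its call under several alternatives.

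The summed markers of myeloid, neutrophil, NK and erythroid cells fell with the stimulated genes, and those of the other cell types did not. The 11 myeloid markers, led by Lyz2, summed to 151 to 156 CPM in control and 6.95 to 8.60 CPM in Carm1-edited libraries. All 9 of these that were tested fell, against 43.2% of all genes tested, and C1qa was at 0 in Carm1-edited libraries. The 5 neutrophil markers summed to 15.9 to 18.0 CPM in control and 0.144 to 0.351 CPM in Carm1-edited libraries, with S100a8 and S100a9 at 0 in the latter. NK cell markers (4 genes) summed to 4.00 to 4.71 and 1.10 to 1.68 CPM, and erythroid markers (6 genes) to 4.84 to 5.43 and 0.167 to 0.451 CPM.

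The summed levels of the other marker lists were higher in Carm1-edited libraries. Dendritic cell markers were mixed, with 3 higher and 2 lower of 5 tested, and Tcf4 alone went from 3.65 to 6.28 CPM. The 7 of them summed to 6.69 to 8.21 CPM in control and 9.43 to 10.2 CPM in Carm1-edited libraries, the 6 B cell markers to 6.93 to 7.30 and 19.3 to 20.5 CPM, and the 4 CD4 T cell markers to 8.65 to 9.28 and 38.3 to 41.8 CPM. Melanoma markers (7 genes) summed to 4.05 to 4.31 and 13.8 to 15.1 CPM, with Tyr, Dct, Tyrp1 and Sox10 at 0 in all 8 libraries. Most of the melanoma sum was Pmel, at 3.43 CPM in control and 12.7 CPM in Carm1-edited libraries. The 5 markers of stroma and endothelium summed to 130 to 132 and 136 to 142 CPM, most of it Pecam1 (128 and 134 CPM). Of the 4 of them tested, 3 were higher and Col1a2 was lower, from 1.075 to 0.018 CPM. The part of these other cells in the levels of the 33 genes was not tested.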

How the data were processed

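RNA with a poly(A) tail from 4 control and 4 Carm1-edited libraries was sequenced as pairs of 150-base reads with a kit that does not mark strand (RNA integrity number above 9.5, per the labels' protocols). Each deposited file gives a whole-number count for every Ensembl gene. The authors used RSEM and the build mm10, per the labels. Because RSEM estimates can be fractional, the origin of the whole numbers is unclear, and neither the aligner nor any annotation or version is given in the sources used here. Deposited gene lengths equal the merged exons. Counting may have split or dropped reads that similar genes share.

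Symbols came from GENCODE M21 (48970 of 49315 identifiers). The filter was filterByExpr (14970 genes kept) and the scaling TMM, with factors of 0.938 to 0.953 (control) or 1.05 to 1.07 (Carm1-edited). The test was the robust, two-sided quasi-likelihood F test of edgeR 4.0.16 in R 4.3.3. P-values were adjusted by Benjamini-Hochberg over all genes tested, and 0.05 was the threshold. A standard error is the log2 fold change over the square root of F. Pairs of replicates gave a chi-square of 1.45 to 13.5 per degree of freedom, above sampling noise, so every library was counted. Bounds cover counting error only. Alternatives were other scaling factors and filters, DESeq2 1.42.0, limma-voom (limma 3.58.1), a test against a change of 1.5-fold, a replicate block and leaving out each library. The edgeR step was tested on simulated data.

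The 33 genes and all lists were chosen with earlier results of these data known. Named genes are all 33, the receptor and signalling genes, up to 5 of each pathway list with the largest change past the threshold, Carm1 and leading markers, and others where said. A gene of the fixed lists is not reported here. Of the listed symbols 2 were synonyms of listed genes. Shared sequence was counted over GENCODE transcripts.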

Additional observations from a re-analysis of the deposited data

Results flagged for a closer look

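In 11 of 174 gene and group combinations 1 of the 4 libraries stood far from the other 3, by Dixon's ratio of gap to range, where about 8.7 would (1 in 20) be flagged by chance. Among the 33 genes this was so for Oas2 alone, at 29.6 CPM in control replicate 2 with the others at 28.6 to 28.7. Of the pathway genes, Ptpn1 was at 255.5 CPM in control replicate 2 (others 247.5 to 248.5) and Ifi205 at 0.601 CPM in control replicate 4 (others 0.843 to 0.868). Ifi207 was at 0.0718 CPM in Carm1-edited replicate 1 (others 0.0240 to 0.0251).

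Cxcl10 was at 0.0251 CPM in Carm1-edited replicate 4 (others 0.250 to 0.287). Gbp2 was at 2591 CPM in control replicate 4 (others 2637 to 2641) and at 354 CPM in Carm1-edited replicate 4 (others 335 to 338). Of the markers, Itgax was at 1.68 CPM in Carm1-edited replicate 4 (others 2.30 to 2.38) and Pmel at 11.8 CPM in Carm1-edited replicate 2 (others 12.9 to 13.0). Hbb-bs was at 0.0240 CPM in Carm1-edited replicate 2 and Hba-a1 at 0.0718 CPM in Carm1-edited replicate 1, with 0 in the other libraries of that group.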

How the results depend on the processing

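Of 559 combinations of a gene of the 33 and an alternative, 549 kept the direction and the side of the threshold, and 27 genes did so throughout. With each library left out in turn, 30 of the 33 genes fell and 1 rose every time, with a median of -1.39 to -1.36, while all genes called ran from 6474 to 6568 lower and 6646 to 6712 higher. Upper-quartile factors moved the median of all genes by 0.215 and library totals alone by 0.160 on the log2 scale, and higher calls made up 61.0% and 58.4% of all calls against 50.8%. With these factors 3 and 2 of the 33 genes rose, the median was -1.15 and -1.21, 1 inhibitor rose with each, and 7 sensing genes rose with each. The 5 CPM filter, which leaves out low genes, moved the genes shared with the main fit by a median of 0.093 on the log2 scale. With it the median of the listed genes kept was -1.23, and without a filter 1 interferon gene passed as lower. Against a 1.5-fold change, a stricter test by construction, 3444 genes fell and 3992 rose, 0 of the 33 rose (Stat2, Samd9l, Dtx3l and Cmpk2 no longer passed), 2 receptor and signalling genes rose, 6 sensing genes fell and 2 rose, 3 other stimulated genes and 1 interferon gamma gene rose. Reversals were Rsad2 at 0.17, 0.12 and 0.048 and Pias1 at 0.16, 0.10 and 0.034 with upper-quartile factors, totals alone and the 5 CPM filter, and Mx1 at -0.0009 without control replicate 2 (range -0.0009 to 0.11). Ifngr2 no longer passed with RLE factors (adjusted p = 0.075), no filter (0.22), DESeq2 (0.13) or the 1.5-fold test, or without control replicate 2, 3 or 4 or Carm1-edited replicate 4. Ube2l6 passed as higher with upper-quartile factors (0.30), totals alone (0.24), the 5 CPM filter (0.18) and without Carm1-edited replicate 3 (0.11). For these reversals the cause was not tested beyond the shifts named.

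Replicate numbers showed no pairing of the libraries. For this, each gene's group mean was subtracted from its log2 level (CPM plus 1). These deviations had correlations of -0.130, -0.101, -0.083 and -0.218 between same-numbered control and Carm1-edited libraries. With the replicate number as a block, 30 of the 33 genes fell and 1 rose, with a median of -1.37, and 6420 genes fell and 6611 rose in all. Of the named genes followed over the alternatives, only Ifngr2 changed its call under the block (adjusted p = 0.050). Ifit1bl2, Oas1b, Oas1c, Ifi27, Ifi203 and Ifi213 were not followed in this way. Depth limits the interferon genes, which were at or under 4 counts a library. The core with one more A was in 12 genes and 3.44% of all promoters, and AAANNGAA in 19 genes and 23.7%, against 14 genes and 8.56%.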
